A study of Mus musculus with 12 samples.

Results

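The genes described are 10 subunits of Polycomb repressive complex 2 (PRC2): Ezh2, Ezh1, Eed, Suz12, Rbbp7, Jarid2, Aebp2, Mtf2, Phf1 and Phf19. They were chosen by gene symbol, and all 10 were found among the 35602 symbols of the count table. All 10 passed the filter on low counts, which 15708 genes passed. The study sequenced poly-A RNA of cultured fibroblasts (MEFs), the connective tissue cells that grow out of dissociated mouse embryos, kept in medium with serum. The 12 libraries form 4 groups of 3: fibroblasts of Ezh2a mutant mice, of wild-type littermates of the Ezh2a mutants, of Ezh2b mutant mice, and of wild-type littermates of the Ezh2b mutants. The series title speaks of EZH2 isoforms that arise from cryptic splice sites. The labels do not give the sequence change in either mutant, the age of the embryos, or whether the replicates of a group came from separate embryos or cultures, so all p-values rest on a spread between libraries that may be technical. The libraries held 28811482 to 54070380 counts. Replicate 3 of the Ezh2b wild type was the deepest and differed most from its own group (mean chi-square per gene 11.3 and 12.4 against the other replicates, 2.63 to 4.67 for all other pairs). The medians were lower, at 1.86 and 1.83 for those pairs and 0.826 to 1.1 for all others. Most genes thus differed little between replicates, and the p-values may not hold for other embryos or cultures.

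PRC2 adds methyl groups to lysine 27 of histone H3, a mark that keeps developmental genes silent. EZH2 or its relative EZH1 carries the catalytic SET domain, and neither works without EED, which reads the mark already present, and SUZ12, the scaffold. RBBP7 and the closely related RBBP4 bind histones. The core then takes up one of several sets of accessory proteins that help it to reach chromatin: JARID2 with AEBP2, or one of the Polycomb-like proteins MTF2, PHF1 and PHF19. In dividing cells EZH2 is usually the main catalytic subunit, and EZH1 is better known from resting and differentiated cells.

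Because the series is about splicing of Ezh2, the splice variants that GENCODE M21 annotates in its coding region (GRCm38 chromosome 6, 47530139 to 47595341, minus strand) are shown first. Of 15 annotated Ezh2 transcripts, Ezh2-201 has 746 codons before the stop and Ezh2-204 has 742, and the pair differs at the donor splice sites of 2 exons. In exon 3 the Ezh2-201 transcript keeps 27 bases, 9 codons, that Ezh2-204 lacks (chr6:47576536-47576562). In exon 8 it is Ezh2-204 that keeps 15 bases, 5 codons, that Ezh2-201 lacks (chr6:47551717-47551731). The lines below are transcript sequence from GENCODE M21, 5′ to 3′ on the coding strand, with 30 bases on either side and the optional bases in capitals.
Exon 3, Ezh2-201: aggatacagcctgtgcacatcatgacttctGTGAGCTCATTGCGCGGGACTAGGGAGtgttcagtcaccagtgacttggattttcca
Exon 3, Ezh2-204: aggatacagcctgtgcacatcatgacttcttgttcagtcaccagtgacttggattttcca
Exon 8, Ezh2-204: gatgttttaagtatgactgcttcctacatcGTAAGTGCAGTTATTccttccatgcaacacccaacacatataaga
Exon 8, Ezh2-201: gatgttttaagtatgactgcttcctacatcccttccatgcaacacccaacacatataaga
Both optional stretches begin with GT, the letters with which nearly all introns begin, since the shorter form splices just before them. The other long coding transcripts, Ezh2-202 and Ezh2-203, lack a whole exon of 126 and 117 bases. The labels do not say whether any of these differences is the one altered in the Ezh2a or the Ezh2b mutant. The deposited counts are summed over the gene and do not separate the transcripts.

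Ezh2 RNA was 2.09-fold lower in the Ezh2a mutant than in its wild type and differed by less than the spread between libraries in the Ezh2b set. Levels are given as CPM, a gene's count relative to its library's TMM-scaled total. The Ezh2a wild-type libraries 1 to 3 had 30.5, 30.4 and 30.1 CPM and the Ezh2a mutant libraries 14.2, 15.2 and 14.2 CPM. The Ezh2b wild-type libraries had 33.8, 35.8 and 35.3 CPM and the Ezh2b mutant libraries 35.4, 33.6 and 36.4 CPM. All Ezh2a mutant libraries thus lay below every other library, while the Ezh2b groups overlapped. The log2 fold change was -1.07 (SE 0.05) in the Ezh2a mutant, with an adjusted p of 3.38e-11 by edgeR's quasi-likelihood test and Benjamini-Hochberg adjustment over all genes tested. In the Ezh2b mutant it was 0.00, with a 95% interval from -0.09 to 0.10 (adjusted p = 0.969, same test). The difference between the Ezh2b and Ezh2a effects was 1.07 (SE 0.07, adjusted p = 8.44e-10). Among the 1609 genes that fell in the Ezh2a mutant, 118 had a more negative fold change than Ezh2. In bulk samples fewer cells that express a gene cannot be told apart from less RNA per cell.

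**Figure D1:**
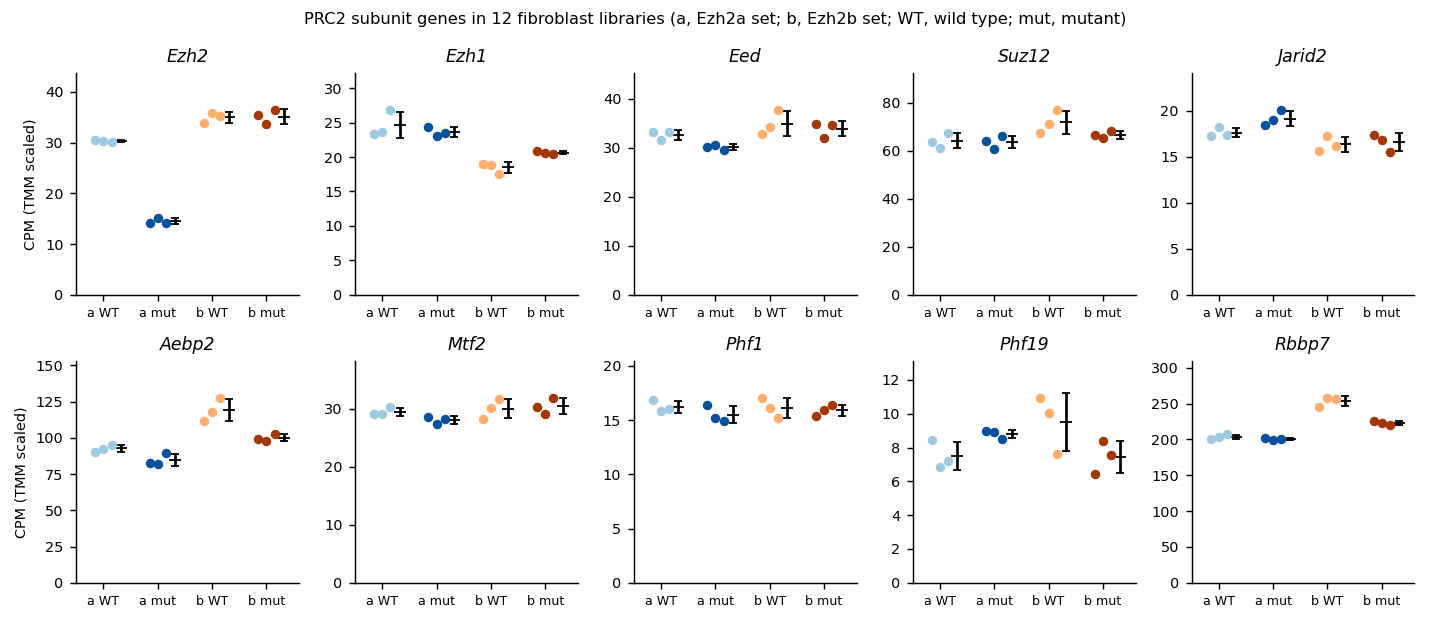
Level of each PRC2 subunit gene in CPM (vertical axes, starting at 0), with 1 point per library, for the wild type and mutant of the Ezh2a set (blue) and of the Ezh2b set (orange and brown). Bars are mean and SD of 3 libraries. Ezh2 in the Ezh2a mutant, at 14.5 CPM, compares with 30.3 CPM in its wild type and is below every other library.

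Ezh1, the other methyltransferase gene (chromosome 11, 101191115 to 101226463), passed the test in neither mutant. In the Ezh2a set its wild-type libraries had 23.4, 23.7 and 26.8 CPM and its mutant libraries 24.4, 23.1 and 23.4 CPM, and the groups overlapped. In the Ezh2b set the wild type had 19.1, 18.9 and 17.5 CPM against 20.8, 20.6 and 20.5 CPM in the mutant, with every mutant library above every wild-type library. The log2 fold change was -0.06 (95% interval -0.18 to 0.07, adjusted p = 0.589) in the Ezh2a mutant and 0.16 (95% interval 0.04 to 0.29, adjusted p = 0.056) in the Ezh2b mutant, by edgeR's quasi-likelihood test. The Ezh2b value lies near the threshold of 0.05. It passed with RLE size factors (adjusted p = 0.0483) and limma-voom (adjusted p = 0.049) but not with DESeq2 (adjusted p = 0.0776), and ranged from 0.0376 to 0.186 over all alternatives. Between the wild types, Ezh1 was lower in the Ezh2b set (log2 difference -0.42, SE 0.06, adjusted p = 1.36e-05).

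The balance of the 2 methyltransferase genes was compared per length, as counts per kilobase of the principal GENCODE transcript (2787 bases for Ezh2, 4193 for Ezh1). On this scale the ratio of Ezh2 to Ezh1 was 1.96, 1.93 and 1.69 in the Ezh2a wild-type libraries and 0.875, 0.986 and 0.911 in the Ezh2a mutant libraries. It was 2.67, 2.86 and 3.03 in the Ezh2b wild type and 2.56, 2.45 and 2.67 in the Ezh2b mutant. Ezh2 therefore exceeded Ezh1 in 3 groups and not in the Ezh2a mutant. The groups of the Ezh2a set did not overlap, and those of the Ezh2b set did. As a share of both genes' per-length counts, Ezh2 made up 65.0% ± 1.88 (SD, n = 3) in the Ezh2a wild type, 48.0% ± 1.51 in the Ezh2a mutant, 74.0% ± 1.22 in the Ezh2b wild type and 71.9% ± 0.872 in the Ezh2b mutant. The mean log2 ratio differed by -1.01 between Ezh2a mutant and wild type (exact permutation test, two-sided, p = 0.1, the smallest that 3 libraries against 3 allow) and by -0.15 in the Ezh2b set (exact permutation p = 0.2). Adjusted over these 2 tests both p-values are 0.2 by the exact permutation test.

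The size of the ratio depends on the length used, but the fold difference between groups does not. With the longest coding length in place of the transcript length, the ratio was 1.25 in the Ezh2a wild type, 0.618 in the Ezh2a mutant, 1.91 in the Ezh2b wild type and 1.71 in the Ezh2b mutant. Per-length levels of Ezh1 itself were 5.87 ± 0.453 CPM per kilobase in the Ezh2a wild type and 5.64 ± 0.159 in the Ezh2a mutant, beside 10.9 ± 0.0721 and 5.21 ± 0.199 for Ezh2 (SD, n = 3).

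**Figure D2:**
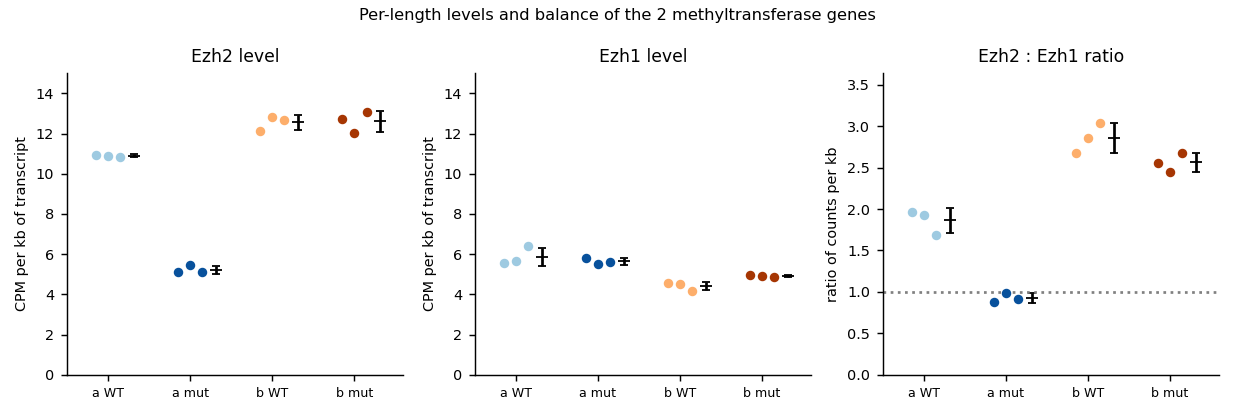
Left and middle, per-length level of Ezh2 and Ezh1 (CPM per kilobase of transcript); right, their ratio within each library, with a dotted line at a ratio of 1. Points are libraries and bars are mean and SD of 3. The Ezh2a mutant libraries lie between 0.875 and 0.986, and the other libraries between 1.69 and 3.03.

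Counted over the 10 subunit genes, 1 fell and none rose in the Ezh2a mutant. Over all tested genes 10.2% fell (1609) and 9.61% rose (1509). With library totals in place of TMM scaling 1117 genes fell and 2061 rose. The members' median log2 fold change was -0.06, and that of all tested genes was 0.00. The 9 members that did not pass had adjusted p-values from 0.0621 to 0.918, and their fold changes ran from -0.13 for Aebp2 to 0.23 for Phf19 on the log2 scale. Mutant and wild-type libraries did not overlap for 6 of 10 members (4 lower, 2 higher), against 37.6% of all tested genes. In the Ezh2b mutant 2 members fell and none rose, against 12.1% (1905) and 14.0% (2200) of all tested genes, or 2525 and 1910 genes with library totals. The members were Aebp2 and Rbbp7. Groups did not overlap there for 3 of 10 members, against 37.2% of all tested genes.

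**Figure D3:**
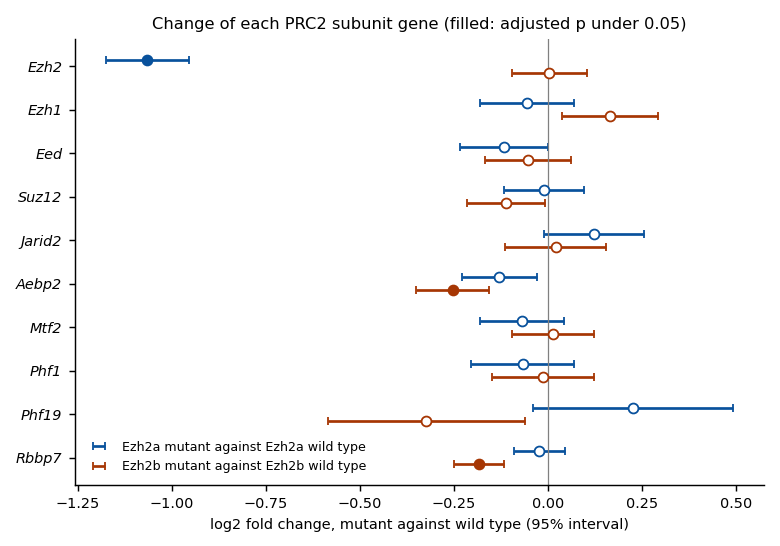
Log2 fold change of each subunit gene, mutant against its own wild type, with its 95% interval, for the Ezh2a set (blue) and the Ezh2b set (brown). Filled points had an adjusted p under 0.05: Ezh2 at -1.07 in the Ezh2a mutant, and Aebp2 at -0.25 and Rbbp7 at -0.18 in the Ezh2b mutant.

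Among the core partners, Eed (chromosome 7, 89954654 to 89980983) and Suz12 (chromosome 11, 79993106 to 80034123) passed the test in neither mutant. Eed had 33.3, 31.5 and 33.3 CPM in the Ezh2a wild type and 30.2, 30.7 and 29.6 CPM in the Ezh2a mutant. These groups did not overlap, but the log2 fold change of -0.12 (SE 0.06) had an adjusted p of 0.159 by edgeR's quasi-likelihood test. In the Ezh2b set Eed ranged from 32.1 to 34.9 CPM in the mutant and from 32.8 to 37.7 CPM in the wild type. Suz12 had 63.6 ± 2.65 CPM in the Ezh2a mutant and 64.1 ± 3.19 in its wild type (SD, n = 3), a log2 fold change of -0.01 with a 95% interval from -0.12 to 0.10. In the Ezh2b set it had 66.7 ± 1.55 CPM in the mutant and 71.8 ± 4.81 in the wild type (log2 fold change -0.11, SE 0.05, adjusted p = 0.111 by the same test). The Suz12 value passed with library totals (-0.14, adjusted p = 0.0483) and without replicate 1 of the Ezh2b wild type (-0.15, adjusted p = 0.0342), and it was -0.05 without replicate 3 of that group (adjusted p = 0.516). Both genes were highest in replicate 3 of the Ezh2b wild type, which is also the deepest library.

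Per length, the sum of the methyltransferase RNAs was lower relative to their partner Suz12 in the Ezh2a mutant. Ezh1 alone had 5.64 CPM per kilobase in the Ezh2a mutant and 5.87 in its wild type, beside 14.56 and 14.67 for Suz12. The sum of Ezh2 and Ezh1, divided by Suz12 in counts per kilobase, was 1.14 ± 0.0337 in the Ezh2a wild type and 0.746 ± 0.0403 in the Ezh2a mutant (SD, n = 3; no test). It was 1.04 ± 0.0683 in the Ezh2b wild type and 1.15 ± 0.0141 in the Ezh2b mutant, with every mutant library above every wild-type library. The ratio of Eed to Suz12 lay between 0.947 and 1.11 in all 12 libraries.

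Rbbp7 (chromosome X, 162760402 to 162779092), the most abundant member per length, fell in the Ezh2b mutant. It had 245, 258 and 257 CPM in the Ezh2b wild-type libraries and 225, 223 and 221 CPM in the Ezh2b mutant libraries. The Ezh2a wild-type libraries had 201, 204 and 207 CPM, and those of the Ezh2a mutant 202, 199 and 200.3 CPM. The Ezh2b groups did not overlap, whereas the Ezh2a groups did, and both lay below all Ezh2b libraries. The log2 fold change in the Ezh2b mutant was -0.18 (SE 0.03, adjusted p = 1.88e-04 by edgeR's quasi-likelihood test), and in the Ezh2a mutant it was -0.02 (SE 0.03, adjusted p = 0.678). Without replicate 3 of the Ezh2b wild type the Ezh2b value was -0.17 (adjusted p = 4.06e-04). The difference between the effects was -0.16 (SE 0.05, adjusted p = 0.0125). Its relative Rbbp4, which is not among the 10, had a mean of 207 ± 6.53 CPM in the Ezh2b wild type against 185 ± 1.24 in the mutant (SD, n = 3) and fell as well (log2 fold change -0.16, SE 0.03, adjusted p = 0.00136). Per length, the ratio of Rbbp7 to Rbbp4 lay between 2.32 and 2.42 in all Ezh2b libraries and between 2.14 and 2.24 in all Ezh2a libraries.

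Of the accessory pair, Aebp2 (chromosome 6, 140622663 to 140678472), a zinc finger protein that stabilizes PRC2, fell in the Ezh2b mutant. It had 112, 118 and 127 CPM in the Ezh2b wild-type libraries and 99.4, 98.0 and 103 CPM in the mutant libraries. The Ezh2a wild-type libraries had 90.4, 92.4 and 95.4 CPM and the Ezh2a mutant libraries 82.4, 82.2 and 89.5 CPM. The 4 groups followed one another without overlap, from the Ezh2a mutant at the bottom to the Ezh2b wild type at the top. The log2 fold change was -0.25 (SE 0.05, adjusted p = 2.94e-04 by edgeR's quasi-likelihood test) in the Ezh2b mutant and -0.13 (SE 0.05, adjusted p = 0.0621) in the Ezh2a mutant. Without replicate 3 of the Ezh2b wild type the Ezh2b value was -0.19 (adjusted p = 0.00174). The Ezh2a value passed in a fit without the filter on low counts (adjusted p = 0.0289), in a fit of the Ezh2a libraries alone (adjusted p = 0.0198), and without replicate 3 of the Ezh2a mutant or replicate 1 or 3 of the Ezh2b wild type, and ranged from 0.0198 to 0.244 over all alternatives. The difference between the 2 effects did not pass (-0.12, 95% interval -0.26 to 0.01, adjusted p = 0.189), but with library totals it did (-0.20, adjusted p = 0.04). On leaving out 1 library the Aebp2 difference ran from -0.17 to -0.07, the last without replicate 3 of the Ezh2b wild type, and did not pass.

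Jarid2 (chromosome 13, 44729474 to 44921643), which brings PRC2 to its targets, passed in neither mutant. It had 17.3, 18.2 and 17.4 CPM in the Ezh2a wild type and 18.4, 19.0 and 20.1 CPM in the Ezh2a mutant, with every mutant library higher (log2 fold change 0.12, SE 0.06, adjusted p = 0.212 by edgeR's quasi-likelihood test). The Ezh2b groups overlapped, at 16.4 ± 0.824 CPM (wild type) and 16.6 ± 0.970 CPM (mutant; SD, n = 3). Per length, Aebp2 exceeded Jarid2 by 8.46-fold ± 0.321 in the Ezh2a wild type, 7.11-fold ± 0.128 in the Ezh2a mutant, 11.7-fold ± 0.887 in the Ezh2b wild type and 9.75-fold ± 0.818 in the Ezh2b mutant. In each set the mutant libraries all had a lower ratio than the wild-type libraries.

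Mtf2 (chromosome 5, 108065674 to 108109004) and Phf1 (chromosome 17, 26933052 to 26937908), both Polycomb-like proteins that bind chromatin through their Tudor domain and winged helix, passed in neither mutant. Mtf2 had 29.5 ± 0.735 CPM in the Ezh2a wild type, 28.1 ± 0.695 in the Ezh2a mutant, 30.1 ± 1.69 in the Ezh2b wild type and 30.4 ± 1.36 in the Ezh2b mutant (SD, n = 3). Every Ezh2a mutant library lay below its wild type for Mtf2 (adjusted p = 0.42 by edgeR's quasi-likelihood test), and the Ezh2b groups overlapped. Its 95% intervals were -0.18 to 0.04 and -0.10 to 0.12 on the log2 scale in the Ezh2a and Ezh2b mutants. Phf1 had 16.3 ± 0.546, 15.5 ± 0.787, 16.1 ± 0.921 and 15.9 ± 0.504 CPM in the same order, and all neighbouring groups overlapped. Of the annotated exon bases of Phf1, 39.3% are also exon bases of Cuta on the other strand. The library protocol in the labels marks no strand, so reads there cannot be told apart and the Phf1 values are uncertain. Such overlap with a counted antisense gene was 6.93% for Mtf2 (Tmed5), 5.98% for Rbbp7 (Txlng) and 6.82% for Eed (E230029C05Rik, with at most 1 count per library).

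Phf19 (chromosome 2, 34893757 to 34914026), the third Polycomb-like gene, was the least abundant member per length. It had 8.45, 6.87 and 7.19 CPM in the Ezh2a wild type and 8.96, 8.93 and 8.52 CPM in the Ezh2a mutant. The Ezh2b wild type had 10.9, 10.0 and 7.59 CPM, and the Ezh2b mutant 6.43, 8.36 and 7.55 CPM. The Ezh2a mutant libraries lay above their wild type, and the Ezh2b groups overlapped through wild-type replicate 3. Neither change passed the test (log2 fold change 0.23, SE 0.13, adjusted p = 0.247, and -0.32, SE 0.13, adjusted p = 0.0638, by edgeR's quasi-likelihood test). The Phf19 change in the Ezh2b mutant passed without the filter on low counts (-0.32, adjusted p = 0.0155), with library totals (-0.35, adjusted p = 0.0376), and without replicate 3 of the Ezh2b wild type (-0.47, adjusted p = 0.00327) or replicate 2 of the Ezh2b mutant (-0.42, adjusted p = 0.041). It was -0.21 without replicate 1 of the Ezh2b wild type (adjusted p = 0.281). The difference between the effects passed at -0.55 (SE 0.18, adjusted p = 0.0267). It missed the threshold with limma-voom (adjusted p = 0.0679) and on leaving out any of 7 single libraries, replicates 1 or 2 of the Ezh2a mutant, 2 or 3 of the Ezh2a wild type, 1 of the Ezh2b mutant, and 1 or 2 of the Ezh2b wild type (adjusted p from 0.0525 to 0.077).

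Summed per length, Jarid2 and Aebp2 together stood to Mtf2, Phf1 and Phf19 together at 1.77 ± 0.0765 in the Ezh2a wild type, 1.68 ± 0.114 in the Ezh2a mutant, 2.13 ± 0.185 in the Ezh2b wild type and 1.88 ± 0.0503 in the Ezh2b mutant (SD, n = 3; no test). The Ezh2b mutant libraries ran from 1.85 to 1.94 and those of its wild type from 1.96 to 2.33, without overlap, while the Ezh2a groups overlapped. Aebp2 carried most of this sum. With geometric means in place of sums the Ezh2b difference on the log2 scale went from -0.18 to 0.00. Among the Polycomb-like genes, Mtf2 made up 44.9% ± 0.924 to 47.5% ± 1.69 of their per-length counts in the 4 groups.

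**Figure D4:**
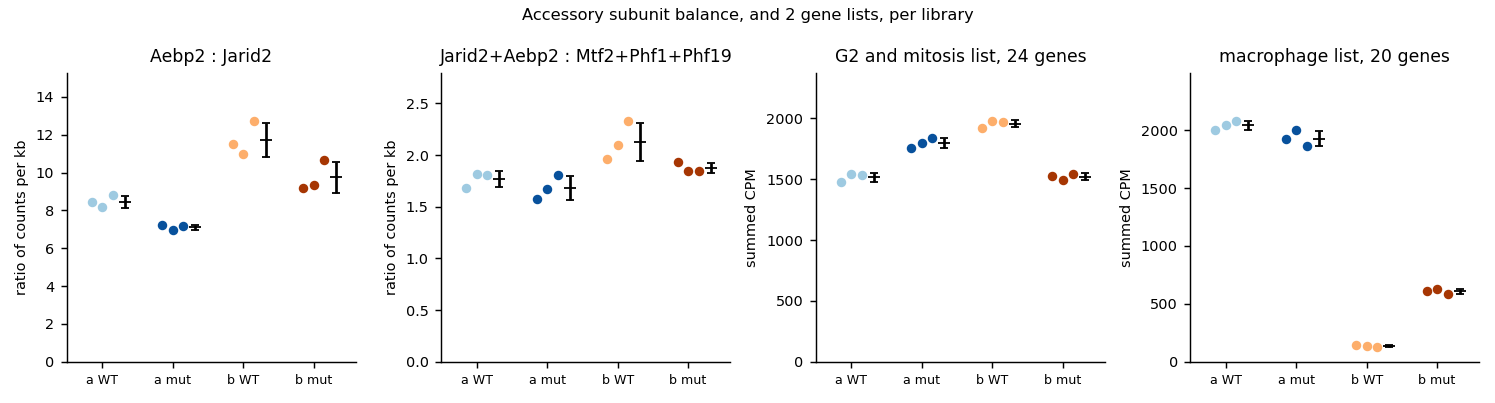
From left to right, the per-length ratio of Aebp2 to Jarid2, the per-length ratio of Jarid2 plus Aebp2 to the 3 Polycomb-like genes, and the summed CPM of the G2 and mitosis list (24 genes) and of the macrophage list (20 genes), for each library with mean and SD of 3. The Ezh2b wild type has the highest subunit ratios and mitotic sum and the lowest macrophage sum, with macrophage values from 129 to 141 CPM.

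The wild types of the 2 sets differed in more members than either mutant did from its own wild type. Of the members, 5 were higher and 1 lower in the wild type of the Ezh2b set, against 20.4% and 21.8% of all tested genes. The higher members were Aebp2 (log2 difference 0.36, SE 0.05, adjusted p = 2.63e-06), Rbbp7 (0.31, SE 0.03, adjusted p = 1.31e-07), Phf19 (0.32, SE 0.13, adjusted p = 0.0469), Ezh2 (0.21, SE 0.05, adjusted p = 0.00167) and Suz12 (0.17, SE 0.05, adjusted p = 0.0109), all by edgeR's quasi-likelihood test, and the lower one was Ezh1. Libraries of the 2 wild types overlapped for Phf19 and Suz12. The Phf19 call was lost in 11 alternatives (adjusted p from 0.0522 to 0.218), and that of Suz12 on leaving out Ezh2a wild-type replicate 2 (adjusted p = 0.065) or Ezh2b wild-type replicate 3 (adjusted p = 0.0691). Between the mutants, 4 members were higher in Ezh2b and 2 lower, against 19.0% (2984) and 22.8% (3586) of all tested genes, or 1934 and 4924 with library totals. Ezh2 differed most there (1.27, SE 0.05, adjusted p = 3.81e-13), followed by Aebp2 at 0.24, Jarid2 at -0.21, Ezh1 at -0.20, Eed at 0.16 and Rbbp7 at 0.15 on the log2 scale. Of these, the call of Ezh1 was lost without replicate 1 of the Ezh2a mutant (adjusted p = 0.0685), and that of Jarid2 without replicate 3 of either mutant (adjusted p = 0.0714 and 0.0786). The call of Eed was lost with library totals (adjusted p = 0.205), without replicate 3 of either mutant, or without replicate 1 of the Ezh2b mutant (adjusted p from 0.0649 to 0.0804). Set, litter and mutation cannot be told apart in these comparisons.

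The difference between the 2 mutant effects passed for 1 member in the positive direction (Ezh2) and for 2 in the negative (Phf19 and Rbbp7), against 14.7% (2305) and 11.9% (1863) of all tested genes, or 1723 and 2787 with library totals. For the other 7 members the 95% intervals of the difference included 0, except for Ezh1 (0.04 to 0.40, adjusted p = 0.0662), which passed without replicate 1 of the Ezh2a wild type (adjusted p = 0.0456).

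Ranked by mean CPM, Ezh2 had the order, from lowest, Ezh2a mutant, Ezh2a wild type, Ezh2b wild type and Ezh2b mutant, the last pair overlapping. For Ezh1 the sets changed places, with the Ezh2b wild type lowest, then the Ezh2b mutant, the Ezh2a mutant and the Ezh2a wild type, the last pair overlapping. Within each set the means of Ezh2 and Ezh1 had the same order. Eed, Suz12, Aebp2 and Rbbp7 shared one order, in which the Ezh2a mutant was lowest and the Ezh2b wild type highest. For Suz12 all neighbours in that order overlapped, for Eed those above the Ezh2a wild type did, and for Rbbp7 the Ezh2a groups did.

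Of the other 4 PRC2 subunit genes tested (Rbbp4, Epop, Lcor and Lcorl), none passed in the Ezh2a mutant. In the Ezh2b mutant Rbbp4 fell and Lcorl, which encodes a PALI-type accessory protein in one of its forms, rose (0.27, SE 0.09, adjusted p = 0.0263). Lcorl had 20.2, 15.5 and 21.6 CPM in the Ezh2b wild-type libraries and 22.4, 24.2 and 23.1 CPM in the mutant libraries. Its rise thus leans on wild-type replicate 2. Alternative fits were examined gene by gene for the 10 members only. Ezhip, an inhibitor of PRC2, had no count in any of the 12 libraries, which allows at most 3 counts per library, or 0.107 CPM in the shallowest. Of 3 genes of the demethylase family for the same histone mark, Uty fell in the Ezh2a mutant by 0.18 on the log2 scale. It had 35.9 ± 0.543 CPM in the wild type against 31.7 ± 1.21 (adjusted p = 0.0281 by edgeR's quasi-likelihood test). Uty lies on chromosome Y, and the part of male and female cells in its level was not tested. Kdm6a and Kdm6b passed in neither mutant. The difference between the effects passed for Kdm6b (0.16, adjusted p = 0.0284) and Uty (0.24, adjusted p = 0.0315). Of 22 subunits of the partner complex PRC1, 7 rose and none fell in the Ezh2a mutant, led by Bmi1 (0.68, SE 0.04, adjusted p = 1.66e-09), and 1 rose and 4 fell in the Ezh2b mutant, led by Scml2 (-0.74, SE 0.14, adjusted p = 3.87e-04). The shares over all tested genes were 9.61% higher and 10.2% lower for the Ezh2a mutant, and 14.0% higher and 12.1% lower for the Ezh2b mutant. The median log2 fold change of the PRC1 list was 0.06 and -0.02 in the Ezh2a and Ezh2b mutants.

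Cell-cycle genes moved with the groups too. Ezh2 is known to be more abundant in dividing cells. The 24 genes of G2 and mitosis summed to 1474 to 1541 CPM in the Ezh2a wild type and 1756 to 1836 in the Ezh2a mutant, where 23 rose and none fell (median 0.25, largest Ccna2 at 0.41). They summed to 1924 to 1976 CPM in the Ezh2b wild type and 1490 to 1546 in the Ezh2b mutant, where all 24 fell (median -0.36, largest Nusap1 at -0.49). Among 24 genes of DNA replication, 7 were called higher in the Ezh2a mutant, led by Tyms (0.33). In the Ezh2b mutant 16 were called lower, led by Mcm5 (-0.40), and no call went the other way in either mutant. The shares over all tested genes were 9.61% higher and 10.2% lower in the Ezh2a mutant, and 14.0% higher and 12.1% lower in the Ezh2b mutant. Ezh2 fell in the mutant in which the mitotic list was higher and was level in the mutant in which it was lower. The falls of Rbbp7 and Aebp2 lay in the mutant with the lower mitotic sum. The part of cell division in the changes of Ezh2, Rbbp7 and Aebp2 was not tested.

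Summed markers of other cell types also differed between the cultures. Over all tested genes 9.61% were called higher and 10.2% lower in the Ezh2a mutant. In the Ezh2b mutant these shares were 14.0% and 12.1%. All 20 macrophage markers were detected. They summed to 2005 to 2076 CPM in the Ezh2a wild type, 1862 to 1999 in the Ezh2a mutant, 129 to 141 in the Ezh2b wild type and 584 to 630 in the Ezh2b mutant, where all 20 rose. All 7 mesothelial markers fell in the Ezh2a mutant, from 101.5 to 108 CPM summed in the wild type to 59.2 to 64.2, and in the Ezh2b mutant 6 rose and 1 fell. The 10 skeletal muscle markers summed to 118.5 to 127 CPM in the Ezh2a wild type and 41.8 to 44.9 in the Ezh2a mutant, where 2 of 4 tested fell, and to 31.8 to 41.0 and 61.5 to 68.2 CPM in the Ezh2b wild type and mutant, where 1 rose. In the Ezh2a set most of this sum was Des, at 109 CPM (wild type) and 34.2 CPM (mutant). The 10 epithelial markers summed to 26.2 to 27.3 CPM in the Ezh2a wild type and 9.27 to 10.2 in the Ezh2a mutant, where 3 of 5 tested fell, and to 23.7 to 29.7 and 17.0 to 19.9 CPM in the Ezh2b wild type and mutant, where 2 rose and 1 fell. The 10 endothelial markers summed to 21.1 to 24.2 and 15.5 to 17.2 CPM in the Ezh2a wild type and mutant, and to 19.2 to 21.4 and 12.0 to 12.9 CPM in those of the Ezh2b set. Cldn5 (endothelium), Esrp1 (epithelium) and Myod1, Myf5 and Myh3 (muscle) had no count in any library. Krt19, also in the mesothelial list, was the largest part of the epithelial sum, with 12.0 and 24.6 CPM in the Ezh2a and Ezh2b wild types. Kdr and Egfl7 made up most of the endothelial sum, and group means of Pecam1 were at most 0.197 CPM. The muscle, epithelial and endothelial sums thus rest on few genes and do not show that such cells were present. The 12 fibroblast markers summed to between 58330 and 69310 CPM, with Col1a1 alone at group means of 16690 to 19270 CPM. This sum says little about less abundant markers such as Lum. Its group means were 151 CPM (Ezh2a wild type), 253 (Ezh2a mutant), 54.8 (Ezh2b wild type) and 70.7 (Ezh2b mutant). Of the 12 markers, 9 were called higher and 2 lower in the Ezh2b mutant. For the Ezh2a mutant the calls were 3 higher and 3 lower. The part of other cells in the differences of Ezh2, Ezh1, Rbbp7 and Aebp2 was not tested.

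The 5 genes whose levels over the 12 libraries were most like those of Ezh2 were Pitx1, Cdkn2a, Fstl3, Ptgs2 and Spon2. Likeness was measured as the root mean square difference between centred log2 CPM profiles over 12 libraries, among 11850 genes. It was 0.15 for Pitx1, a transcription factor of hindlimb identity, and 0.17 for Cdkn2a, a cell-cycle inhibitor locus and well-known PRC2 target. It was 0.18 for Fstl3, an antagonist of activins, 0.19 for Ptgs2, the inducible cyclooxygenase, and 0.20 for Spon2, a matrix protein, against a median of 0.54 over all candidates. The 5 were picked as the closest, so values below the median and low Ezh2a mutant levels are largely given by the choice. Pitx1 had 20.6, 12.8, 25.3 and 26.8 CPM, and Cdkn2a 38.7, 20.7, 61.2 and 51.2 CPM, in the Ezh2a wild type, Ezh2a mutant, Ezh2b wild type and Ezh2b mutant. In the Ezh2b set the log2 fold change of Cdkn2a was -0.26 (SE 0.04), beside 0.00 for Ezh2.

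**Figure D5:**
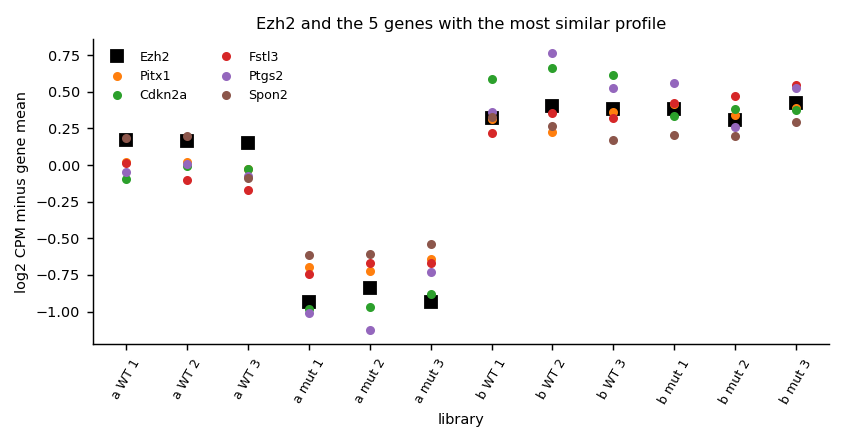
Log2 CPM minus the gene's mean over 12 libraries (vertical axis) for Ezh2 (black squares) and the 5 genes with the most similar profile (coloured points), by library (horizontal axis). All 6 genes are lowest in the 3 Ezh2a mutant libraries, which is largely given by picking the 5 for their likeness to Ezh2. Ezh2 spans 1.36 on the log2 scale.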

How the data were processed

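The authors deposited raw counts per gene symbol for 12 libraries (28811482 to 54070380 counts each). The genome build was GRCm38 (mm10), and the tools were edgeR 4.2.1, StringTie 2.1.5, HISAT2 2.1.0 and fastp 0.21.0, per the submitters' processing notes. How reads were counted, with which annotation and strand setting, is not given in the sources used here. In the table a count of 2 was more frequent (13267 entries) than a count of 1 (3357 entries), so a fragment may have been counted as 2. Columns were matched to samples by the labels' descriptions.

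Genes were filtered with filterByExpr, scaled by TMM and fitted with 1 mean per group over 12 libraries (8 residual degrees of freedom) in edgeR 4.0.16 (R 4.3.3). Benjamini-Hochberg adjustment ran over the quasi-likelihood p-values of 15708 genes, with a threshold of 0.05. The SE was taken as log2 fold change over the square root of F. CPM is scaled to TMM-adjusted totals. Lengths and positions come from GENCODE M21. Mean chi-square per gene was 2.63 to 12.4 between replicates (median 0.826 to 1.86), highest for Ezh2b wild-type replicate 3. Each library was kept as 1 sample. Depth limits precision by counting error only. Alternatives included DESeq2 1.42.0 and limma 3.58.1 (voom). The members, lists and tests were chosen with earlier results of these data known. Named genes are the members, the other PRC2 subunits and demethylase family genes, the 5 genes most like Ezh2 (average log2 CPM 1 or above), and the largest change in the PRC1 and cell-cycle lists.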

Additional observations from a re-analysis of the deposited data

Results flagged for a closer look

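For 3 members the effect of the Ezh2b mutation differed from that of the Ezh2a mutation by edgeR's quasi-likelihood test of the difference itself. The difference was 1.07 for Ezh2 on the log2 scale (adjusted p = 8.44e-10), which was lower than every wild-type library in all 3 Ezh2a mutant libraries and overlapped with its wild type in the Ezh2b set. It was -0.55 for Phf19 (adjusted p = 0.0267), and this call was lost on leaving out any of 7 single libraries. It was -0.16 for Rbbp7 (adjusted p = 0.0125), and it stayed between -0.18 and -0.14 on leaving out any single library.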

How the results depend on the processing

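The fall of Ezh2 in the Ezh2a mutant stayed between -1.09 and -1.04 on the log2 scale on leaving out any single library, and its call held in every alternative. Of 990 alternative fold changes of the 10 members, 917 kept direction and call, 28 lost and 20 gained the call, and 25 changed sign. None of the 25 passed the threshold in either fit. The Ezh2a count of changed members became 2 (Aebp2 added) without the filter, with only the libraries compared and with the replicate block, and 1 to 2 on leaving out 1 library. The Ezh2b count became 3 with RLE size factors, halved counts and limma-voom (Ezh1 added, higher) and without the filter (Phf19 added), 4 with library totals (Phf19 and Suz12 added) and 2 to 4 on leaving out 1 library. The replicate numbers did not pair the libraries (correlations of same-numbered libraries from -0.139 to 0.0119), and the replicate block changed no other count. The counts for the difference between effects were 2 to 4, those between wild types 4 to 6 and those between mutants 4 to 6 on leaving out 1 library. The Ezh2 to Ezh1 log2 difference ran from -1.08 to -0.97 (Ezh2a) and from -0.20 to -0.11 (Ezh2b), and the accessory balance from -0.13 to -0.03 and from -0.23 to -0.11. Geometric means took the Ezh2b balance to -0.001.

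With library totals in place of TMM the median log2 fold change of all genes was 0.04 in the Ezh2a mutant, -0.036 in the Ezh2b mutant, -0.073 in the difference between effects and -0.094 between mutants (with TMM -0.002, -0.006, -0.001 and -0.022). Signs then changed for Eed (-0.009) and Phf1 (-0.018) in the difference between effects, for Ezh2 (-0.027), Jarid2 (-0.010) and Mtf2 (-0.019) in the Ezh2b mutant, for Rbbp7 (0.018) and Suz12 (0.031) in the Ezh2a mutant, and for Phf1 (-0.037) and Suz12 (-0.006) between mutants. With limma-voom Ezh2 in the Ezh2b mutant was -0.001. On leaving out 1 library, the sign varied in the Ezh2b mutant for Eed (-0.093 to 0.016), Ezh2 (-0.018 to 0.044), Jarid2 (-0.006 to 0.07), Mtf2 (-0.024 to 0.062) and Phf1 (-0.052 to 0.033), in the Ezh2a mutant for Ezh1 (-0.094 to 0.008) and Suz12 (-0.041 to 0.027), and between wild types for Mtf2 (-0.01 to 0.076) and Phf1 (-0.058 to 0.028). The fit of only the libraries compared gives no difference between effects. Of the members Phf19 had the fewest counts, so depth limits its values most. The causes were not tested.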
